A study of Mus musculus with 8 samples.

Results

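The genes described here are 8 matrix metalloproteinases, Mmp2, Mmp3, Mmp9, Mmp10, Mmp11, Mmp13, Mmp14 and Mmp19, chosen by gene symbol from 52110 rows with a symbol. All 8 passed the low-count filter and are among the 17360 genes tested. They were measured by RNA sequencing in primary fibroblasts from wild-type (WT) mouse lung, kept in culture medium with fetal bovine serum. Cells were left untreated or received recombinant TWEAK, a cytokine of the tumour necrosis factor family that signals through the receptor Fn14, at 10, 30 or 100 ng/ml, and RNA was taken at 48 h. There were 8 libraries, 2 per group, with total counts of 37278985 to 50810783. Nothing in the labels ties the paired libraries to separate cultures or animals, so p-values here cover the spread between libraries only, and that spread may be technical.

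Matrix metalloproteinases (MMPs) are zinc-dependent endopeptidases that cut proteins of the extracellular matrix and many cell surface and secreted proteins. Most are secreted as inactive proenzymes, are activated when the propeptide is cut off, and are blocked by the tissue inhibitors of metalloproteinases (TIMPs), while Mmp14 stays anchored in the plasma membrane. In the lung, fibroblasts are among the cells that both deposit matrix and secrete the enzymes that turn it over. RNA levels say nothing of how much enzyme was secreted or activated.

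The 2 libraries at 100 ng/ml stood nearer to the untreated ones than those at the lower doses did. CPM below is a count relative to the scaled total of its library. On the first principal component of log2 CPM, which held 63.9% of the variance, untreated libraries lay at -49.0 and -47.5, the 100 ng/ml libraries at -27.1 and -27.2, the 30 ng/ml libraries at 25.5 and 35.7, and the 10 ng/ml libraries at 44.0 and 45.6. The order of the groups was thus not the order of the labelled doses. No value in the table checks the dose labels, so a weaker response at 100 ng/ml and an exchange of the 10 and 100 ng/ml labels cannot be told apart. The numbers in the column names rise from untreated through 100 and 30 to 10 ng/ml, which is also the order of the groups on this component. The reason for this was not tested. Each dose named below is the dose on the label. Every comparison is given for each dose on its own, and no trend with dose was fitted. The summed level of 10 defining fibroblast markers was 32440 to 33630 CPM in untreated cells, 17510 to 18040 CPM at 10 ng/ml, 18680 to 21550 CPM at 30 ng/ml and 30490 to 31050 CPM at 100 ng/ml. The fall of this sum was not shared by all of its genes. At 10 ng/ml 7 of the 10 fell, Fn1 and the collagens among them, and 3 rose, Vim (856 to 1235 CPM), Pdgfra (1263 to 1463 CPM) and Dcn (1132 to 1500 CPM). Of the same 10, 7 fell and 2 rose, Vim and Pdgfra, at 30 ng/ml. In RNA from whole cultures, fewer cells of a type and less RNA per cell cannot be told apart.

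The sequence just upstream of the transcription start differed in kind between members, and it is shown here for the 5 members matched by symbol in the RefSeq promoter table (build GRCm38.p6). AP-1, the dimer of Fos and Jun proteins, is a classical binder of the promoters of stromelysins and collagenases, so its motif is marked. Each line holds the 120 bases before the RefSeq start, 5′ to 3′ on the gene's own strand. Capitals mark matches to the AP-1 motif, which is TGANTCA. They also mark the TATA box, searched as TATAAA. The GC box bound by Sp1, searched as GGGCGG, is marked in the same way. The windows are chr9:7445702-7445821 for Mmp3, chr9:7502222-7502341 for Mmp10, chr9:7272394-7272513 for Mmp13, chr10:75932503-75932622 for Mmp11 and chr14:54431478-54431597 for Mmp14, on the minus strand for Mmp11 and the plus strand for the others.
Mmp3: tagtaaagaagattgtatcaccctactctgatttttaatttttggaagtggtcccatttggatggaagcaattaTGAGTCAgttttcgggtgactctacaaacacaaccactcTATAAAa
Mmp10: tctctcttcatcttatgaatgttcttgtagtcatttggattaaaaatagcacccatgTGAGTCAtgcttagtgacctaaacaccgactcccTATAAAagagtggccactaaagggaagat
Mmp13: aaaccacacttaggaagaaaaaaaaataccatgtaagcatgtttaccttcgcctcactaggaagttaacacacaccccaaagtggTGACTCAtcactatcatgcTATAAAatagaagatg
Mmp11: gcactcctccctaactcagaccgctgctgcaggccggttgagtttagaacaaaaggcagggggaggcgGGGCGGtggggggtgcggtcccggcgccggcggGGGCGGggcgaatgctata
Mmp14: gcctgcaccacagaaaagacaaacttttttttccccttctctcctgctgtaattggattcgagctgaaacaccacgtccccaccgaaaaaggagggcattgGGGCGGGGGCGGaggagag

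In these sequences the 3 members that lie in a cluster of MMP genes on chromosome 9 had the same pair of motifs. The first base of the AP-1 match stood at -46 in Mmp3, -63 in Mmp10 and -35 in Mmp13, with a TATAAA match closer to the start, at -7, -29 and -16, counted from the RefSeq start. Mmp11 and Mmp14 had neither motif in the table's whole window of 250 bases before and 50 after the start, and held 4 and 2 GC box matches instead. Over the 32851 promoters of the table, searched on both strands in windows of the same length, 7.81% held TGANTCA, 13.6% TATAAA and 35.7% GGGCGG. The GC content of the 250 upstream bases was 37.6% for Mmp3, 37.2% for Mmp10, 40.4% for Mmp13, 63.2% for Mmp11 and 55.2% for Mmp14, against a median of 52.4%. Of the other motifs searched, the PEA3 motif of Ets factors, AGGAAG, occurred once in Mmp3, in 2 places in Mmp13 and once in Mmp14, and in 35.4% of all promoters. The NF-kB motif had no match in the 5 windows and was present in 6.93% of all promoters. Mmp2, Mmp9 and Mmp19 had no promoter to search, so nothing is known here of their motifs. Among the other family genes the NF-kB motif matched in 1 listed promoter of Mmp12, at -129, and in that of Mmp25, at -88. A match describes letters only. Other genes of that cluster had the pair as well, namely Mmp1a, Mmp1b and Mmp20. Some but not all listed promoters of Mmp7 and Mmp12 also had it. Mmp8 had TATAAA on the other strand and no AP-1 match, and Mmp27 had neither. At 10 ng/ml Mmp10, Mmp13 and Mmp12 rose, Mmp8 and Mmp27 fell, and Mmp3, Mmp1a and Mmp1b were not called. A link between motifs and changes was not tested.

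At 10 ng/ml, 4 members rose against untreated cells, Mmp9, Mmp10, Mmp13 and Mmp14, and 2 fell, Mmp2 and Mmp11, while Mmp3 and Mmp19 were not called. A call means an adjusted p under 0.05 in edgeR's quasi-likelihood test with Benjamini-Hochberg adjustment over all genes tested. The background was high, since 29.2% of all genes were called at this dose, 15.0% higher and 14.2% lower. At 30 ng/ml, 3 members rose, Mmp9, Mmp10 and Mmp13, and Mmp2 and Mmp11 fell, against 23.3% of all genes called, 12.6% higher and 10.7% lower. At 100 ng/ml, 2 members rose, Mmp9 and Mmp10, and none fell, against 1.12% of all genes called, 0.812% higher and 0.305% lower. At an unadjusted p under 0.05 by edgeR stood 11.62% of all genes at 100 ng/ml, and 3 members, Mmp2, Mmp9 and Mmp10. The median log2 change of the 8 members was 0.08, 0.03 and 0.10 at the 3 doses in that order, beside 0.01, 0.01 and 0.00 over all genes, so the members did not move one way. Between the doses, 3 members were higher at 100 than at 10 ng/ml, Mmp2, Mmp11 and Mmp19, and 3 were lower, Mmp9, Mmp10 and Mmp14, against 22.0% of all genes called, 10.7% higher and 11.2% lower. Against 30 ng/ml, 2 were higher at 100 ng/ml, Mmp2 and Mmp11, and 2 lower, Mmp9 and Mmp10, against 15.2% called, 7.15% higher and 8.04% lower.

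**Figure D1:**
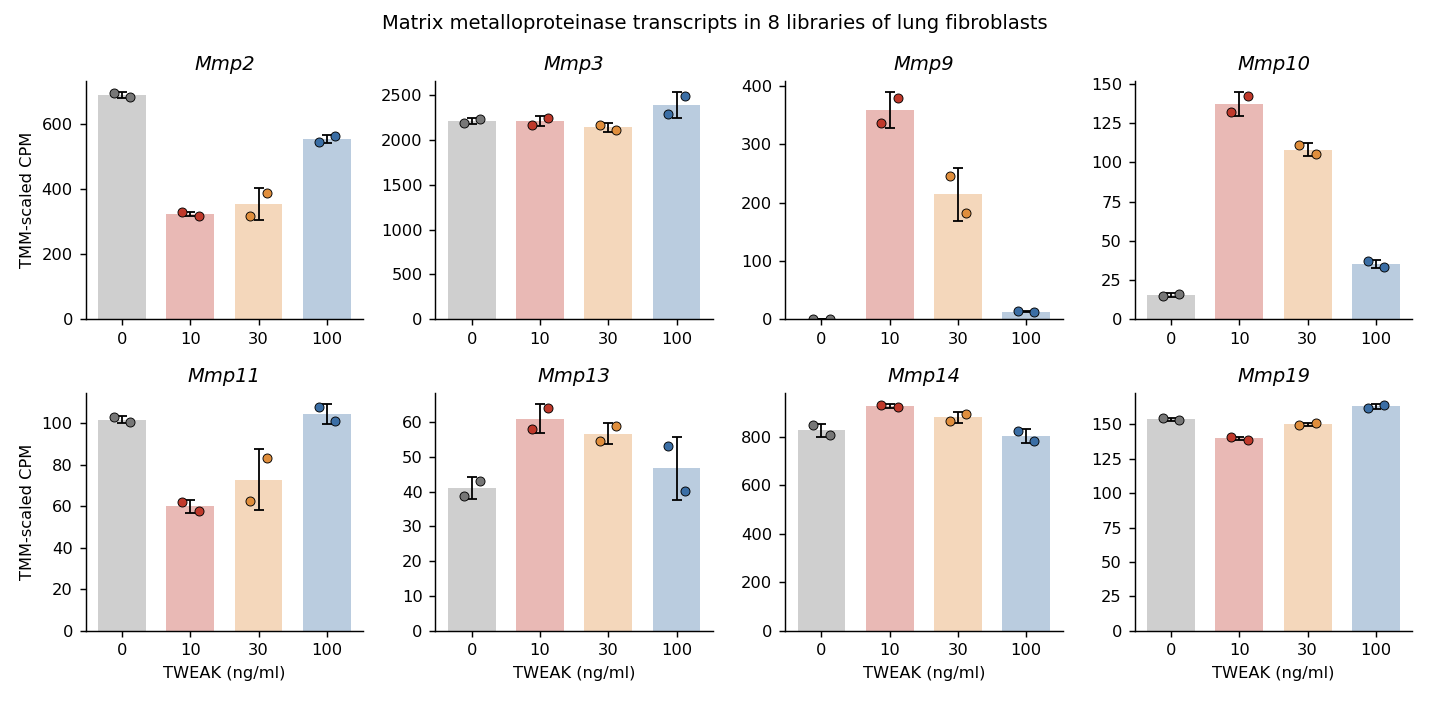
Level of each of the 8 members in every library, in CPM scaled by TMM (vertical axis, from 0) against the TWEAK dose in ng/ml; points are libraries, bars group means and whiskers ± 1 SD of the 2 libraries. Mmp9 runs from under 1 CPM in untreated cells to 337 and 380 CPM at 10 ng/ml, while Mmp3 stays between 2105 and 2488 CPM in all 8 libraries.

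Mmp9, gelatinase B, which cuts denatured collagen and basement membrane collagen and is best known from neutrophils and macrophages, changed more than any other member. The gene lies on chromosome 2 at 164940780 to 164955850 of mm10, on the plus strand, and has 15 exon blocks in GENCODE M21. Untreated libraries held 9 and 7 counts, or 0.180 and 0.141 CPM. The level was 337 and 380 CPM at 10 ng/ml, 246 and 182 CPM at 30 ng/ml, and 13.2 and 11.8 CPM at 100 ng/ml. All 6 treated libraries lay above both untreated ones, and the 4 groups did not overlap. The log2 change from untreated was 11.10 ± 0.25 (SE, n = 2 libraries a group) at 10 ng/ml (adjusted p = 6.82e-07 by edgeR), a fold of 2199 with a 95% interval of 1478 to 3273. It was 10.36 ± 0.24 at 30 ng/ml (adjusted p = 1.37e-06) and 6.26 ± 0.24 at 100 ng/ml (adjusted p = 1.20e-04). The wide interval of the fold reflects the 16 counts of untreated cells, and with limma-voom the adjusted p at 100 ng/ml was 0.0894. By log2 change Mmp9 ranked 5th from the top of 17360 genes at 10 and at 30 ng/ml and 26th at 100 ng/ml.

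The order of Mmp9 levels was 10, 30, 100 ng/ml and untreated. Mmp9 was lower at 100 than at 10 ng/ml by a log2 change of -4.84 ± 0.17 (adjusted p = 1.87e-05), and lower than at 30 ng/ml by -4.09 ± 0.16 (adjusted p = 7.17e-05). Between 30 and 10 ng/ml the change of -0.75 ± 0.14 was not called by edgeR (adjusted p = 0.286). No member and 0 of all genes (0.0%) were called in that comparison by edgeR or limma-voom, with 1208 genes at an unadjusted p under 0.05, Mmp9 and Mmp10 among them. DESeq2 called 127 genes there, including Mmp9 (adjusted p = 2.8e-05). Without library 1 at 30 ng/ml, edgeR also called Mmp9 (adjusted p = 0.0330).

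Mmp2, gelatinase A, is the constitutive gelatinase of fibroblasts and is activated at the cell surface by Mmp14. It lies on chromosome 8 at 92827291 to 92853420. Untreated libraries held 693 and 681 CPM, those at 10 ng/ml 328 and 317 CPM, those at 30 ng/ml 318 and 387 CPM, and those at 100 ng/ml 543 and 561 CPM. Levels at 10 and 30 ng/ml overlapped each other and lay below all other libraries. Mmp2 fell by 1.09 ± 0.09 on the log2 scale at 10 ng/ml (adjusted p = 6.87e-05), to 0.470 of the untreated level, and by 0.96 ± 0.09 at 30 ng/ml (adjusted p = 1.84e-04). At 100 ng/ml the log2 change was -0.32 (95% interval -0.52 to -0.11) and was not called by edgeR (adjusted p = 0.179). It was called by DESeq2 (adjusted p = 0.0401), and by edgeR without library 1 (adjusted p = 0.0396) or library 2 (adjusted p = 0.0392) of 30 ng/ml. Mmp2 was higher at 100 than at 10 ng/ml by 0.77 ± 0.09 (adjusted p = 6.42e-04) and than at 30 ng/ml by 0.65 ± 0.09 (adjusted p = 0.00235).

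The 2 gelatinases thus moved in opposite directions at 10 and 30 ng/ml. Compared per length, as CPM per kilobase of exon (RPKM), Mmp2 stood at 206 and 202 in untreated cells and Mmp9 at 0.0508 and 0.0397. At 10 ng/ml they were at a like level, Mmp2 at 97.3 and 94.2 RPKM and Mmp9 at 95.2 and 107 RPKM. At 30 ng/ml Mmp2, at 94.3 and 115 RPKM, was again above Mmp9, at 69.6 and 51.3 RPKM. Mmp9 went from rank 16119 of 16812 genes by mean RPKM in untreated cells to rank 464 at 10 ng/ml, and Mmp2 from rank 187 to 502.

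Mmp3, stromelysin 1, which cuts proteoglycans, laminin and fibronectin and activates other pro-MMPs, was the most abundant member. It lies on chromosome 9 at 7445822 to 7455975. It held 2190 and 2236 CPM in untreated cells, 2167 and 2249 CPM at 10 ng/ml, 2171 and 2105 CPM at 30 ng/ml, and 2287 and 2488 CPM at 100 ng/ml. Libraries at 10 ng/ml spanned the untreated range, those at 30 ng/ml lay just below it and those at 100 ng/ml above it. None of these differences was called. The log2 change was -0.003 (95% interval -0.12 to 0.11) at 10 ng/ml, -0.05 (-0.17 to 0.07) at 30 ng/ml and 0.11 (-0.01 to 0.23) at 100 ng/ml, with adjusted p of 0.97, 0.54 and 0.457. Per length its mean was 1229 RPKM in untreated cells, rank 27 of the 16812 genes.

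Mmp10, stromelysin 2, has substrates like those of Mmp3 and is a near relative on the same chromosome, at 7502352 to 7510240. Untreated libraries held 14.6 and 16.3 CPM. Levels were 132 and 142 CPM at 10 ng/ml, 111 and 105 CPM at 30 ng/ml, and 37.1 and 33.3 CPM at 100 ng/ml. No 2 groups overlapped, and the order was the same as for Mmp9. Mmp10 rose by 3.15 ± 0.10 (adjusted p = 2.02e-06) at 10 ng/ml, which is 8.88-fold, by 2.81 ± 0.10 (adjusted p = 3.64e-06) at 30 ng/ml and by 1.19 ± 0.09 (adjusted p = 0.00146), or 2.28-fold, at 100 ng/ml. It was lower at 100 than at 10 ng/ml by -1.96 ± 0.09 (adjusted p = 2.85e-05) and than at 30 ng/ml by -1.62 ± 0.09 (adjusted p = 1.03e-04). Between 30 and 10 ng/ml the change of -0.34 ± 0.09 was not called (adjusted p = 0.493).

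Mmp3 and Mmp10 share sequence, which bears on how reads were assigned. Of all stretches of 50 bases in the annotated transcripts, 147 of 1752 in Mmp3 also occurred in another gene, Mmp10 or the predicted gene Gm15244, and 140 of 1673 in Mmp10 also occurred in Mmp3. Reads within these stretches cannot be told apart. Gm15244 had 0 counts in all libraries. For Mmp2, Mmp9 and Mmp13 no such stretch was shared.

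Mmp11, stromelysin 3, which is known from the stroma of tumours and remodelling tissues and is activated inside the cell by furin, moved in the direction of Mmp2. It lies on chromosome 10 at 75923222 to 75936496, on the minus strand. It held 103 and 101 CPM in untreated cells, 62.1 and 57.7 CPM at 10 ng/ml, 62.4 and 83.1 CPM at 30 ng/ml, and 108 and 101 CPM at 100 ng/ml. The 4 libraries at 10 and 30 ng/ml were below untreated, and those at 100 ng/ml overlapped with untreated. Mmp11 fell by 0.77 ± 0.13 (adjusted p = 0.00287) at 10 ng/ml and by 0.49 ± 0.13 (adjusted p = 0.0277) at 30 ng/ml. The call at 30 ng/ml was lost without untreated library 1 (adjusted p = 0.114) or 2 (adjusted p = 0.0928), or with the 2 groups fitted alone (adjusted p = 0.0608). Without library 1 of 30 ng/ml the change was -0.29 (adjusted p = 0.0934), so the size of this fall rests on that library.

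Mmp11 was not called at 100 ng/ml against untreated cells (log2 change 0.04, 95% interval -0.25 to 0.33). It was higher at 100 than at 10 ng/ml by 0.80 ± 0.13 (adjusted p = 0.00320). It was also higher than at 30 ng/ml by 0.52 ± 0.13 (adjusted p = 0.0287), a call lost without either untreated library, library 1 of 30 ng/ml or either library of 100 ng/ml, with adjusted p between 0.0507 and 0.135. Without library 1 of 30 ng/ml that change was 0.33. Exons of Mmp11 overlap those of Chchd10 over 155 bases. Chchd10 held 8.89 CPM on average in untreated cells and was not called at 10 ng/ml (log2 change -0.21, adjusted p = 0.517).

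Mmp13, collagenase 3, the main interstitial collagenase of rodents, rose modestly. It lies on chromosome 9 at 7272514 to 7283331. It held 38.7 and 43.1 CPM in untreated cells, 58.0 and 63.9 CPM at 10 ng/ml, 54.5 and 58.8 CPM at 30 ng/ml, and 53.1 and 40.3 CPM at 100 ng/ml. The libraries at 10 and 30 ng/ml lay above both untreated ones, while 1 of the 2 at 100 ng/ml lay within the untreated range. Mmp13 rose by 0.57 ± 0.14 (adjusted p = 0.0147), or 1.49-fold, at 10 ng/ml and by 0.47 ± 0.14 (adjusted p = 0.0406) at 30 ng/ml. The call at 10 ng/ml was lost without untreated library 1 (adjusted p = 0.0970) or library 2 of 10 ng/ml (adjusted p = 0.0802). The call at 30 ng/ml was lost without any 1 of the 6 libraries of the untreated, 10 and 30 ng/ml groups, with adjusted p between 0.0578 and 0.204, and without the low-count filter (adjusted p = 0.0736). The log2 change at 100 ng/ml was 0.19 (95% interval -0.12 to 0.50) and not called. Between 100 and 10 ng/ml it was -0.39 (adjusted p = 0.0818). Without library 1 of 100 ng/ml it was -0.60 (adjusted p = 0.0195), and DESeq2 also called it (adjusted p = 0.0335).

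Mmp14, the membrane-type MMP that activates pro-Mmp2 and cuts fibrillar collagen at the cell surface, was the third most abundant member per length in untreated cells. It lies on chromosome 14 at 54431612 to 54445364. It held 847 and 809 CPM in untreated cells, 933 and 921 CPM at 10 ng/ml, 865 and 895 CPM at 30 ng/ml, and 825 and 783 CPM at 100 ng/ml. Libraries at 10 ng/ml were the highest and those at 100 ng/ml overlapped with untreated. The rise of 0.16 ± 0.05 at 10 ng/ml was called (adjusted p = 0.0428), but the call held in 1 of the 8 fits that left out 1 library, the one without library 2 of 100 ng/ml. The adjusted p of the other 7 fits lay between 0.0510 and 0.239, and that of DESeq2 was 0.0950. At 30 ng/ml the log2 change was 0.09 (95% interval -0.03 to 0.21) and at 100 ng/ml -0.04 (-0.16 to 0.07), neither called. Mmp14 was lower at 100 than at 10 ng/ml by -0.21 ± 0.05 (adjusted p = 0.0231). That call was lost without either library of 10 ng/ml or library 2 of 100 ng/ml, with adjusted p of 0.0659 to 0.117.

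Mmp19, a secreted MMP found in many tissues that cuts basement membrane proteins, had closely spaced libraries within each group. It lies on chromosome 10 at 128790910 to 128800824. It held 154 and 153 CPM in untreated cells, 141 and 139 CPM at 10 ng/ml, 149 and 151 CPM at 30 ng/ml, and 162 and 164 CPM at 100 ng/ml. The groups did not overlap, and yet no contrast with untreated cells was called. The log2 change was -0.14 (95% interval -0.27 to -0.003) at 10 ng/ml, -0.03 (-0.17 to 0.10) at 30 ng/ml and 0.09 (-0.05 to 0.22) at 100 ng/ml. It was higher at 100 than at 10 ng/ml by 0.22 ± 0.06 (adjusted p = 0.0291), a call lost without any 1 of the 6 libraries of the untreated, 10 and 100 ng/ml groups, with adjusted p between 0.0571 and 0.117. Of the 50-base stretches of its transcripts, 24.7% also occur in Tmem198b or Gm47093, and its exons overlap theirs over 1001 bases. Tmem198b went from 29.6 CPM in untreated cells to 39.7 CPM at 10 ng/ml (log2 change 0.42 ± 0.13, adjusted p = 0.0494 by edgeR). It was not called at 30 ng/ml (0.101, adjusted p = 0.655) or 100 ng/ml (0.135, adjusted p = 0.778). The part of shared reads in the values of Mmp19 was not tested.

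**Figure D2:**
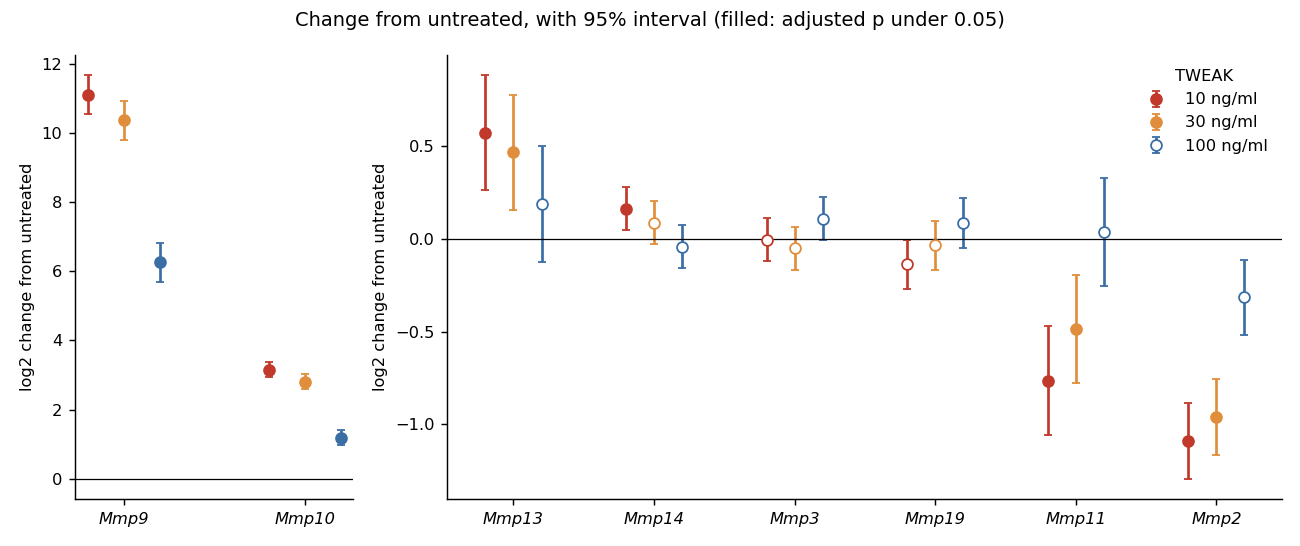
Log2 change of each of the 8 members from untreated cells at 10, 30 and 100 ng/ml, with 95% intervals from edgeR; filled points have an adjusted p under 0.05 and open points do not. Mmp9 and Mmp10 are above 0 at every dose, Mmp2 and Mmp11 are below 0 at 10 and 30 ng/ml, and Mmp3, Mmp14 and Mmp19 stay near 0.

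Summed per length, the 8 members changed in make-up more than in amount. Their summed level was 1676 ± 11.3 RPKM (SD, n = 2) in untreated cells, 1742 ± 41.7 at 10 ng/ml, 1652 ± 16.3 at 30 ng/ml and 1750 ± 71.4 at 100 ng/ml. Mmp3 made up 73.3%, 70.4%, 71.8% and 75.8% of the sum in the same order of groups. Mmp2 went from 12.2% to 5.50%, 6.33% and 9.36%, Mmp9 from 0.00270% to 5.81%, 3.66% and 0.203%, and Mmp10 from 0.535% to 4.57%, 3.80% and 1.17%. At 10 ng/ml the shares of Mmp9 and Mmp2 were close, and their order differed between the 2 libraries. Mmp9 was at 5.56% and Mmp2 at 5.68% in library 1, and at 6.06% and 5.32% in library 2. Mmp14 stayed between 7.72% and 8.94%. These shares are descriptions of RNA and were not tested.

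Among the other 15 genes of the family, 11 passed the low-count filter. At 10 ng/ml, 1 of them rose, Mmp12, and 4 fell, Mmp8, Mmp17, Mmp27 and Mmp28, where 15.0% of all genes were called higher and 14.2% lower. At 30 ng/ml 1 rose, Mmp12, and 3 fell, Mmp8, Mmp17 and Mmp27, where 12.6% were called higher and 10.7% lower. Their median log2 change was -0.63, -0.60 and -0.43 at the 3 doses, or -0.78, -0.70 and -0.43 without Mmp1a, which had 0 counts in untreated cells. No other family gene was called by edgeR at 100 ng/ml (0 of 11), with 3 at an unadjusted p under 0.05, while DESeq2 called 1 and limma-voom 0. Of all genes, 11.62% had an unadjusted p under 0.05 by edgeR at that dose, and DESeq2 called 592 and limma-voom 192.

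Mmp8, collagenase 2, named for neutrophils, was second to Mmp3 per length in the whole family. It held 1226 and 1275 CPM in untreated cells, 653 and 667 CPM at 10 ng/ml, 770 and 876 CPM at 30 ng/ml, and 1368 and 1506 CPM at 100 ng/ml. It fell by 0.92 ± 0.07 (adjusted p = 6.44e-05) at 10 ng/ml and by 0.60 ± 0.07 (adjusted p = 7.57e-04) at 30 ng/ml. In the summed RPKM of all 23 family genes, Mmp3 took 55.3% and Mmp8 23.2% in untreated cells, and 60.0% and 13.3% at 10 ng/ml. The family sum was 2221 ± 25.1 RPKM in untreated cells, 2043 ± 42.8 at 10 ng/ml, 2021 ± 12.4 at 30 ng/ml and 2373 ± 113 at 100 ng/ml.

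**Figure D3:**
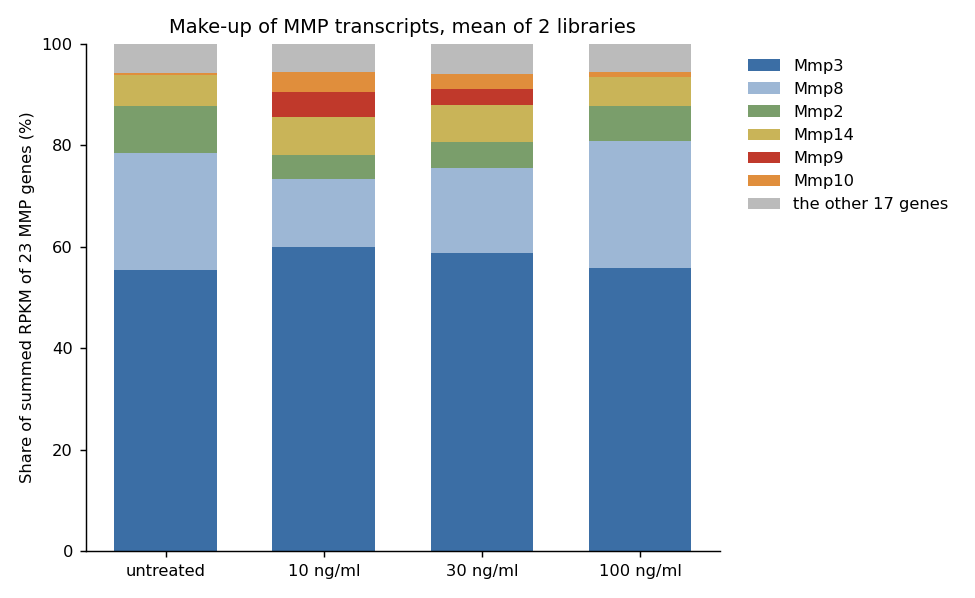
Share of the summed RPKM of all 23 MMP family genes (vertical axis, in percent) by group, as means of 2 libraries, with 6 genes shown by colour and the other 17 together in grey. Mmp3 is the largest share in every group, from 55.3% in untreated cells to 60.0% at 10 ng/ml, and Mmp9 and Mmp10 reach 4.96% and 3.90% at 10 ng/ml.

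Mmp12, the elastase known from macrophages, went from 2.28 and 2.49 CPM to 8.98 and 9.35 CPM at 10 ng/ml (log2 change 1.94 ± 0.16, adjusted p = 6.67e-05) and 8.66 and 7.77 CPM at 30 ng/ml (1.78 ± 0.16, adjusted p = 1.46e-04). Its exons overlap those of Mmp1b, on the other strand, over 157 bases. Mmp17, a membrane-type MMP held by a lipid anchor, went from 16.9 and 16.4 CPM to 5.72 and 3.16 CPM at 10 ng/ml (log2 change -1.91 ± 0.27, adjusted p = 0.00134) and fell by 1.60 at 30 ng/ml (adjusted p = 0.00376). Mmp27 fell by 0.98 at 10 ng/ml (adjusted p = 0.00212) and by 0.86 at 30 ng/ml (adjusted p = 0.00490). Mmp28, epilysin, fell by 1.20 ± 0.30 at 10 ng/ml (adjusted p = 0.0194). This call was lost without either untreated library or library 2 of 10 ng/ml, with adjusted p of 0.0610 to 0.0688, and without the last the change was -0.81. The other 6 tested genes were not called at any dose, Mmp23 at a mean of 43.6 to 52.8 CPM, Mmp15 and Mmp16 at 1.34 to 3.42 CPM, and Mmp1a, Mmp1b and Mmp25 below 1 CPM. Mmp7 and Mmp20 had 0 counts in all 8 libraries.

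Mmp3, Mmp10 and Mmp13 stand in a cluster of 10 MMP genes over 427.1 kb of chromosome 9, from 7272514 to 7699585 on mm10. In the order Mmp13, Mmp12, Mmp1b, Mmp3, Mmp1a, Mmp10, Mmp8, Mmp27, Mmp20 and Mmp7, the called genes did not all move one way. At 10 ng/ml, Mmp13, Mmp12 and Mmp10 rose, with log2 changes of 0.57, 1.94 and 3.15. Mmp8 and Mmp27, the next 2 genes beyond Mmp10, fell by 0.92 and 0.98. Mmp3, which lies between Mmp12 and Mmp10, was at -0.003. At 30 ng/ml the same 5 genes were called in the same directions, at 0.47, 1.78, 2.81, -0.60 and -0.86. Mmp10 alone in the cluster was called at 100 ng/ml, at 1.19, with Mmp12 at 0.80 (adjusted p = 0.0685).

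**Figure D4:**
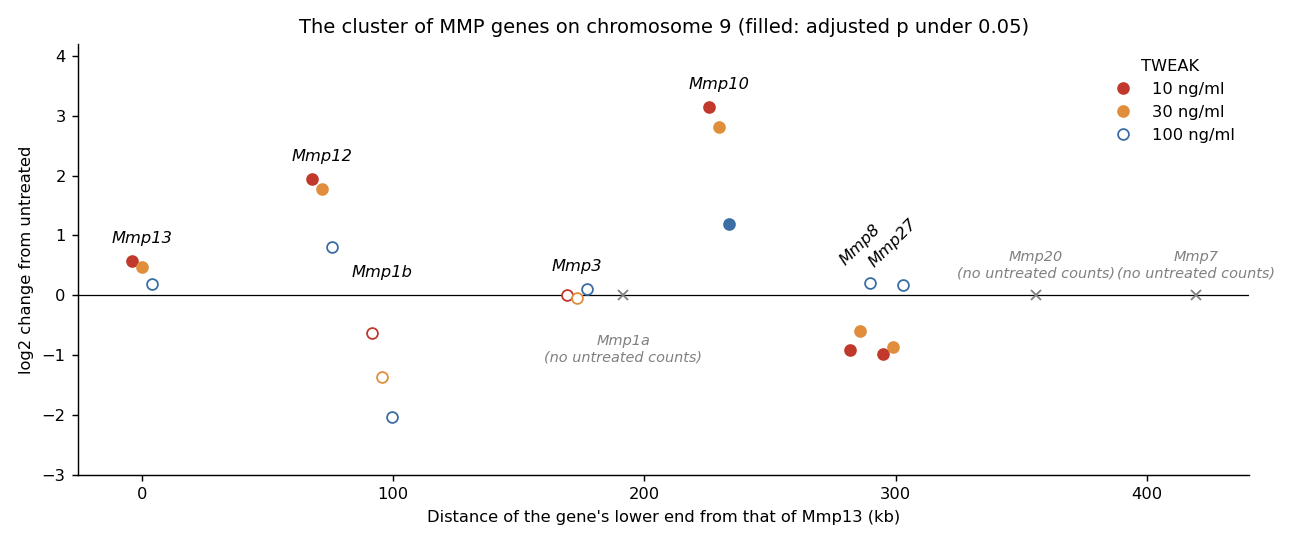
Log2 change from untreated cells (vertical axis) of the MMP genes of the chromosome 9 cluster against the distance of each gene from Mmp13 in kb, with 1 point per dose, filled where the adjusted p is under 0.05; crosses mark genes with 0 counts in untreated cells. Mmp12 and Mmp10 are the highest points at 10 and 30 ng/ml, and Mmp8 and Mmp27 lie below 0 at those doses.

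Genes that work with MMPs were read from lists chosen by function, with their counts beside the background given above. At 100 ng/ml the background at an unadjusted p under 0.05 by edgeR was 11.62% of all genes. Of 6 protein inhibitors, 1 rose and 2 fell at 10 and at 30 ng/ml, and 1 rose and 1 fell at 100 ng/ml, with median log2 changes of -0.53, -0.45 and -0.32. Timp3, the TIMP that binds to matrix, fell from 1609 and 1558 CPM to 210 and 191 CPM at 10 ng/ml (log2 change -2.98 ± 0.09, adjusted p = 1.80e-06), and by 2.46 at 30 ng/ml. It was at 967 and 986 CPM at 100 ng/ml, a fall of 0.70 (adjusted p = 0.00770), a call lost without untreated library 1 (adjusted p = 0.0612) or library 1 of 100 ng/ml (adjusted p = 0.0581). Timp3 lies inside Syn3, whose exons overlap its own. Timp1, the inducible TIMP, rose from 327 and 328 CPM to 628 and 617 CPM at 10 ng/ml (0.93 ± 0.05, adjusted p = 1.39e-05), by 0.74 at 30 ng/ml and by 0.39 at 100 ng/ml (adjusted p = 0.0153). The last call was lost without either untreated library or library 2 of 100 ng/ml, with adjusted p of 0.0758 to 0.126. Reck, a membrane-anchored inhibitor of Mmp9, Mmp2 and Mmp14, fell by 1.05 at 10 ng/ml (adjusted p = 4.28e-05) and by 0.82 at 30 ng/ml (adjusted p = 1.98e-04). Timp2, which blocks MMPs and also takes part in the activation of pro-Mmp2 by Mmp14, held 1850 to 2044 CPM in all libraries and was not called at any dose. The summed RPKM of Timp1, Timp2 and Timp3 was 1076 in untreated cells and 1232, 1133 and 1086 at the 3 doses, so the ratio of the 8 members to these TIMPs was 1.56 ± 0.0389, 1.42 ± 0.0686, 1.46 ± 0.00212 and 1.61 ± 0.0297 (SD, n = 2). Most of the members' sum is Mmp3. The ratio leaves out Mmp8, which went from a mean of 516 RPKM in untreated cells to 272 RPKM at 10 ng/ml, so it is not that of the whole family.

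Of 11 tested genes of the plasminogen system and the proprotein convertases, which cut MMP propeptides, 3 rose and 3 fell at 10 ng/ml and 2 rose and 3 fell at 30 ng/ml, with medians of 0.17 and 0.09. Pcsk6 fell by 2.09 ± 0.15 at 10 ng/ml (adjusted p = 3.38e-05) and Pcsk5 by 1.27 ± 0.12 (adjusted p = 1.69e-04). Both are convertases that cut at paired basic residues, as furin does. Furin itself was not called at any dose, with a log2 change of 0.10 at 10 ng/ml (adjusted p = 0.595). EdgeR called 0 of the 11 at 100 ng/ml, with 2 at an unadjusted p under 0.05, 2 called by DESeq2 and 1 by limma-voom.

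Of 12 surface partners and binders, 4 rose and 5 fell at 10 ng/ml and 3 rose and 5 fell at 30 ng/ml, with medians of -0.09 and -0.15. Cd44, the hyaluronan receptor that can dock Mmp9 and Mmp14 at the surface, rose from 133 and 143 CPM to 713 and 796 CPM at 10 ng/ml (2.45 ± 0.20, adjusted p = 6.51e-05) and to 630 and 422 CPM at 30 ng/ml (1.93 ± 0.19, adjusted p = 2.79e-04). Thbs1 and Thbs2, thrombospondins that take part in the clearance of Mmp2, fell by 0.87 (adjusted p = 1.46e-05) and 0.57 (adjusted p = 1.43e-04) at 10 ng/ml. Of the 12, edgeR called 0 at 100 ng/ml, with 2 at an unadjusted p under 0.05, 1 called by DESeq2 and 0 by limma-voom.

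Of 8 cathepsins, lysosomal proteases that also cut matrix, 2 rose and 1 fell at 10 and at 30 ng/ml, with medians of 0.19 and 0.12. Ctsc, which activates serine proteases, rose by 1.34 ± 0.09 at 10 ng/ml (adjusted p = 2.17e-05). Ctsk, the strongest collagenase among cathepsins, rose by 0.50 (adjusted p = 0.00396), and Ctsb fell by 0.26 (adjusted p = 0.00479). By edgeR, 0 of the 8 were called at 100 ng/ml, with 1 at an unadjusted p under 0.05, 1 called by DESeq2 and 0 by limma-voom.

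Of 15 matrix substrates of MMPs, 3 rose and 11 fell at 10 ng/ml and 2 rose and 11 fell at 30 ng/ml, with medians of -0.52 and -0.49. Col3a1, collagen III, fell from 8955 and 8870 CPM to 1936 and 1886 CPM at 10 ng/ml (log2 change -2.22 ± 0.13, adjusted p = 1.54e-05). Col1a1, collagen I, fell by 1.35 ± 0.08 (adjusted p = 1.86e-05) and Lamb1, a laminin chain, by 0.68 ± 0.05 (adjusted p = 3.67e-05). Eln, Nid1 and Dcn were the 3 that rose at this dose, named after their values were seen. At 100 ng/ml edgeR called 0 of the 15, with 7 at an unadjusted p under 0.05, 2 called by DESeq2 and 1 by limma-voom. Collagen genes are also among the fibroblast markers whose summed level is given above, and the part of culture make-up in these falls was not tested.

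Of 20 transcription factors of families known to bind MMP promoters, 11 rose and 1 fell at 10 ng/ml, 12 rose and 1 fell at 30 ng/ml, and 2 rose and none fell at 100 ng/ml, with medians of 0.49, 0.49 and 0.29. Nfkb2, the noncanonical NF-kB subunit, rose from 61.5 and 59.3 CPM to 408 and 422 CPM at 10 ng/ml (2.78 ± 0.07, adjusted p = 1.27e-06), by 2.54 at 30 ng/ml and by 1.12 at 100 ng/ml (adjusted p = 7.59e-04). Its groups followed the same order as Mmp9 and Mmp10, which is also the order of the groups on the first principal component. Relb, its dimer partner, rose by 2.00 at 10 ng/ml (adjusted p = 1.86e-05) and by 1.63 at 30 ng/ml, and was at 0.62 at 100 ng/ml (adjusted p = 0.0659). Junb, an AP-1 subunit, rose by 1.35 at 10 ng/ml (adjusted p = 2.56e-05), by 1.23 at 30 ng/ml and by 0.78 at 100 ng/ml (adjusted p = 0.00709, and 0.0551 without untreated library 2).

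The genes whose changes were nearest to those of a member were found as the smallest value, among 10596 genes averaging 5 CPM or more, of the largest difference in log2 change over the 3 doses. This measure is a description over 4 groups that share the untreated libraries. For Mmp9 the nearest was Traf1, an adaptor of TNF receptors, with log2 changes of 10.38, 9.63 and 6.47 and a largest difference of 0.73. Spib and Madcam1 followed at 1.54 and 1.60. For Mmp10 the nearest were Il1rl1, the receptor for interleukin 33, at 0.13, then Spata13 and Arl4c, both at 0.14. For Mmp2 they were Dapk1, Asap1 and Mturn, all at 0.05, and for Mmp11 Ephb6, Meox2 and Cdc42ep1, all at 0.03. Mmp13, Mmp3, Mmp14 and Mmp19, with smaller changes, each had 3 genes within 0.04.

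Since Mmp9, Mmp8 and Mmp12 are known from neutrophils or macrophages, markers of other cells were read in the same libraries. The summed level of 10 neutrophil markers was 1.82 to 2.13 CPM in untreated cells, 0.908 to 1.01 CPM at 10 ng/ml, 0.425 to 0.793 CPM at 30 ng/ml and 1.33 to 1.98 CPM at 100 ng/ml. Averaged over the 8 libraries all 10 were below 1 CPM, though S100a8 was above it in 4 libraries, at up to 1.40 CPM, and S100a9, Ngp and Ltf had 0 counts. Of these markers 2 passed the low-count filter, and edgeR called 0 of them at any dose, with 0 at an unadjusted p under 0.05. The sum of 10 macrophage markers was 11.7 to 15.4 CPM in untreated cells, 23.9 to 27.6 CPM at 10 ng/ml, 22.0 to 27.0 CPM at 30 ng/ml and 24.7 to 28.2 CPM at 100 ng/ml. Averaged over the libraries, 7 of these were below 1 CPM, including Ptprc and Adgre1, and Cd163 was at 0. Lyz2, the highest of them, averaged 9.54 CPM in untreated cells and 14.2, 14.7 and 17.6 CPM at the 3 doses, and was not called. Cd68 went from 2.06 CPM to 8.84, 8.20 and 4.70 CPM and was called at each dose. Its groups stood in the order of Mmp9, which is also their order on the first principal component. Of the 7 macrophage markers tested, edgeR called 2 higher at 10 ng/ml, 1 at 30 ng/ml and 1 at 100 ng/ml, and 0 lower. Over all genes 15.0%, 12.6% and 0.812% were called higher. The median log2 changes of the 7 were 0.58, 0.62 and 1.19. Endothelial markers summed to 6.28 to 7.81 CPM over all libraries, with members that moved apart. Cdh5 went from 0.150 CPM to 4.04, 2.97 and 0.527 CPM at the 3 doses, again in the order of Mmp9 and of the first principal component. Tek went from 4.74 to 1.46, 1.96 and 4.15 CPM. Both genes were called at 10 and 30 ng/ml. Epithelial markers summed to 0.480 to 2.23 CPM, mesothelial markers to 4.47 to 13.6 CPM, and mural markers to 128 to 187 CPM. The mesothelial sum was highest in untreated cells and the mural sum at 10 ng/ml. The mural sum was led by Des, at a mean of 73.1 CPM. Of 8 mural markers edgeR called 3 higher and 3 lower at 10 and at 30 ng/ml, with medians of -0.23 and -0.04. Of 5 tested mesothelial markers it called 2 lower at 10 and 3 at 30 ng/ml, and 0 higher. The 1 tested epithelial marker was called higher at 30 ng/ml. Shares of all genes called are given above. The part of any of these cells in the results was not tested.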

How the data were processed

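The authors deposited 1 table of raw counts per gene for 8 RNA-seq libraries, with no normalization. Per the submitters' processing notes, the build was mm10 and STAR and StringTie were used, with no versions. Not given in the sources used here: the counting program, the annotation and the use of strand, so reads of overlapping genes could be assigned to either. Rows without a symbol (3225 of 55335, 0.168% to 0.178% of counts) were left out, and 80 symbols on more than 1 row were kept apart by row. Genes were filtered with filterByExpr by group, scaled by TMM and tested with edgeR 4.0.16 (R 4.3.3; quasi-likelihood F test, two-sided, Benjamini-Hochberg), with a mean per group, all 8 libraries in 1 fit, 4 residual and 3.77 prior degrees of freedom. Standard errors were approximated from each change and its F value. Levels are CPM with TMM scaling, or RPKM over GENCODE M21 exon unions, and 16812 tested genes had a length. Limma 3.58.1 (voom), DESeq2 1.42.0, other scalings and filters, a replicate block, the 2 groups alone and each library left out were alternatives; leaving out both 100 ng/ml libraries was chosen after seeing the data. Between 2 libraries of a group the chi-square per degree of freedom was 24.5 to 29.8, so none was a copy. The code was tested on simulated data for 10 ng/ml against untreated. It called 7.6% of 66 genes changed 1.5-fold, 50.0% of 64 changed 2-fold and 84.1% of 63 changed 4-fold. Far fewer genes changed there than were called here, so these shares need not hold for the data. A gene not called may still have changed. The members and lists were chosen with earlier results of these data known. Named were all members, the filtered family genes, up to 3 called genes per list with the smallest p at 10 ng/ml, and the 3 nearest genes per member (1 gene that the rule names is not reported here); Timp2, Furin, Eln, Nid1, Dcn and the single marker genes were added after their values were seen. Depth limits the smallest values: 3 counts were 0.0590 to 0.0805 CPM.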

Additional observations from a re-analysis of the deposited data

Results flagged for a closer look

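For Mmp3 and Mmp19, both libraries at one dose lay on the other side of both untreated libraries from those at another dose. The share of all genes with this pattern was not computed, so it is not read as a trait of these members. For Mmp3 the libraries at 30 ng/ml were below and those at 100 ng/ml above both untreated libraries, and the log2 changes differed by 0.16 (adjusted p = 0.0739 by edgeR, not called). For Mmp19 the libraries at 10 ng/ml were below and those at 100 ng/ml above, a difference of 0.22 (adjusted p = 0.0291 by edgeR, called). As given above, that call was lost when single libraries were left out. The Mmp19 libraries at 30 ng/ml were also below, and differed from those at 100 ng/ml by 0.12 (adjusted p = 0.224, not called). The comparisons share the untreated libraries.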

How the results depend on the processing

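Of 840 recomputed values of single members, 769 kept their direction and side of the threshold, 56 lost a call, 8 gained one and 7 changed sign. The changes of sign were all near 0: Mmp3 at 10 ng/ml was 0.03 with library totals for scaling, 0.00 with a filter at a mean of 1 CPM, and -0.03 to 0.01 with 1 replicate left out. With 1 replicate left out, Mmp2 between 30 and 10 ng/ml ran from -0.02 to 0.26, and at 100 ng/ml Mmp11 from -0.01 to 0.08 and Mmp13 from -0.02 to 0.37. Leaving out 1 replicate in turn gave 4 to 6, 3 to 5, 2 to 3, 0 to 1, 4 to 6 and 3 to 4 members called for 10, 30 and 100 ng/ml against untreated, 30 against 10, 100 against 10 and 100 against 30 ng/ml. Over all genes the ranges were 3392 to 4839, 2540 to 3831, 91 to 237, 3 to 62, 2406 to 3545 and 1380 to 2468. At 30 ng/ml 3 members were called without either untreated replicate or without replicate 1 of that dose. Requiring also an absolute log2 change of at least 1 left 3 members at 10 ng/ml, 2 at 30 ng/ml and 2 at 100 ng/ml against untreated. It left 2 for 100 against 10 and 2 for 100 against 30 ng/ml. For these comparisons in the same order, it left 1919, 1441, 89, 1249 and 802 of all genes. DESeq2 called 592 genes at 100 ng/ml (389 higher, 203 lower, against 141 and 53 by edgeR) and 127 genes and 1 member for 30 against 10 ng/ml. Limma-voom called 1 member at 100 ng/ml. For 30 against 10 ng/ml, 5 genes were called with the 2 groups alone and 3 without the 100 ng/ml libraries. With the replicate number as a block, 5, 4, 2, 0, 5 and 4 members and 4661, 3578, 136, 0, 3340 and 2231 genes were called in the same order. Samples with the same number did not deviate together (correlations of -0.079 to 0.076), so the numbers are not taken to pair them. The causes of these changes were not tested.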
